A study of Homo sapiens with 12 samples.

Results

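The expression profile described here is that of HK-2 cells that received no test compound: the 6 control arrays of a study of 12 arrays. HK-2 is an established line of human kidney proximal tubule epithelial cells, immortalised with papillomavirus oncogenes. Control cells were given the control vehicle, whose identity is not stated in the sources used here, so they were vehicle-treated rather than left alone. They were harvested at 24 h (3 biological replicates) or 48 h (3 biological replicates). The other 6 arrays came from cells given a high dose of Nnm for the same times, and enter only 1 comparison near the end. All 4 groups shared 1 medium, a DMEM and Ham's F12 mixture without serum among its listed supplements, which contained epidermal growth factor, hydrocortisone, insulin, transferrin and selenite, and all cells were treated at high confluence. Each gene was represented by 1 probe set, the one with the highest mean over the 6 control arrays, and 19775 genes were ranked in this way. The level of a gene is its mean log2 value over the 6 control arrays, given with the SD (n = 6 arrays). Genes under log2 4 are called near background, those from log2 4 to under 10 moderate, and those at log2 10 or more abundant. Probe sets differ in how strongly they bind their target, so the ranking is one of signal and gives only a coarse order of transcript amounts. Fewer cells expressing a gene and less RNA of it in each cell cannot be told apart in such bulk samples.

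The proximal tubule reabsorbs most of the filtered glucose, amino acids, phosphate and bicarbonate, through carriers of the apical brush border and a sodium pump and exit pathways of the basolateral membrane. It takes up filtered protein with the receptors megalin and cubilin, makes glucose from lactate and glutamine, and burns fatty acids rather than glucose. After injury, proximal tubule cells lose much of this program, express genes such as HAVCR1 and VIM, and re-enter the cell cycle, a state called dedifferentiation. Cultured lines are widely known to hold only part of the adult program.

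The data bear on promoters because silent and expressed genes can be compared by what lies before their start sites. The promoters of 4 genes are shown, picked after the levels were known: SLC34A1 (sodium-phosphate cotransporter) and SLC6A19 (neutral amino acid transporter), both near background, and HAVCR1 (kidney injury molecule) and CLDN1 (claudin of the tight junction), both abundant. Each line gives the 250 bases before the RefSeq transcription start on the gene's own strand (GRCh38.p14). Capitals mark every match on either strand to the motifs searched. These were the TATA box, spelled TATAAA, the GC box, spelled GGGCGG, and the box known as CCAAT by its letters. Also searched were the core of the motif of the hepatocyte nuclear factor HNF1, spelled GTTAAT, and the motif of HNF4, spelled CAAAGTCCA. The others were the AP-1 motif of growth and stress response genes, spelled TGAGTCA, and the E box, known from many helix-loop-helix factors and spelled CACGTG.
SLC34A1 (chr5:177384184-177384433, plus strand, level 2.66): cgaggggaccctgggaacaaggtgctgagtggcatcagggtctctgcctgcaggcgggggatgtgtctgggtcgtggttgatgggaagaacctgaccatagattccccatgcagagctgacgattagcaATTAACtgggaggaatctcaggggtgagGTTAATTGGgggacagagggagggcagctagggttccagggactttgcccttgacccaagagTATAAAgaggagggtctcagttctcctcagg
SLC6A19 (chr5:1201345-1201594, plus strand, level 3.76): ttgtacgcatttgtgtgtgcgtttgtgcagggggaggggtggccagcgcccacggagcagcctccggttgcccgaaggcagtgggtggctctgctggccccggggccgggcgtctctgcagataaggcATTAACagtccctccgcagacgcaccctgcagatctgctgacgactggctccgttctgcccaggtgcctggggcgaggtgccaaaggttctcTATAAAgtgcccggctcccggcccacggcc
HAVCR1 (chr5:157059117-157059366, minus strand, level 11.53): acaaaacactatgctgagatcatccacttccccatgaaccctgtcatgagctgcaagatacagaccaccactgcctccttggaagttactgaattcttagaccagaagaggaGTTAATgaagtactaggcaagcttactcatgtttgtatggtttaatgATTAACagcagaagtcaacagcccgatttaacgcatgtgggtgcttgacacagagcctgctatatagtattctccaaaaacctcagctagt
CLDN1 (chr3:190322447-190322696, minus strand, level 14.66): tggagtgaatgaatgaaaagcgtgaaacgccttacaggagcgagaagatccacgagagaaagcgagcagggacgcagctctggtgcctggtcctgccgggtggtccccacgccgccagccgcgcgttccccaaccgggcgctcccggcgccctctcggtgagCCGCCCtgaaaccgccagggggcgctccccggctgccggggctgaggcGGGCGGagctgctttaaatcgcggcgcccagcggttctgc
A TATAAA began 31 bases before the start of SLC34A1 and 30 bases before that of SLC6A19. The windows of HAVCR1 and CLDN1 held no match to this exact spelling. Variant spellings, such as the tatata near the end of the HAVCR1 line, were not searched, so these windows are not shown to lack a TATA box. SLC34A1 and HAVCR1 each had 2 HNF1 cores and SLC6A19 had 1; in SLC34A1 the one nearer the start shared bases with a CCAAT box. CLDN1 had 2 GC boxes and none of the other motifs.

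Over the genome-wide set, 15381 of the 19775 genes had a promoter in the RefSeq table (250 bases before to 50 after the start), and the 3 level classes differed in base composition. Among protein-coding genes, promoters were counted whose CpG content was over 0.6 of the one predicted from their base composition. They made up 42.6% of 4789 near-background genes, 84.4% of 6267 moderate genes and 89.4% of 2398 abundant genes. The share in all 27303 promoters in the table was 48.9%. Those promoters also cover noncoding genes and genes not ranked here, so here and below they are no matched reference for the protein-coding classes. The TATA box went the other way, at 14.3%, 4.55% and 6.09% of the 3 classes and in 3264 of all 27303 promoters. The GC box was in 44.4%, 72.0% and 72.2%, and in 44.6% of all promoters. The HNF1 core was in 7.31%, 3.43% and 3.25%, and in 6.89% of all promoters. Among the genes of the 3 proximal tubule lists described below, it was in 10 of 43 near-background promoters (23.3%) and in 2 of 20 promoters of genes at log2 4 or more (10.0%). These are matches of letters in a window, not shown binding sites.

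Of the 19775 genes, 9057 (45.8%) were near background, 7889 (39.9%) moderate and 2829 (14.3%) abundant. Median levels of the classes were 2.45, 7.78 and 11.13. The sets hold a built-in reference for silence: 81 of 82 olfactory receptor genes, 33 of 33 keratin-associated protein genes of hair and 18 of 18 bitter taste receptor genes were near background, with medians of 2.19, 2.31 and 2.14. At the other end, 49 of 52 cytosolic ribosomal protein genes and 67 of 80 genes for subunits of oxidative phosphorylation were abundant, with medians of 14.96 and 12.10. RPLP2 (3.59) and RPL36A (3.93), ribosomal protein genes that every growing cell uses, were nonetheless listed near background, so a low signal does not by itself show that a transcript was missing.

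**Figure D1:**
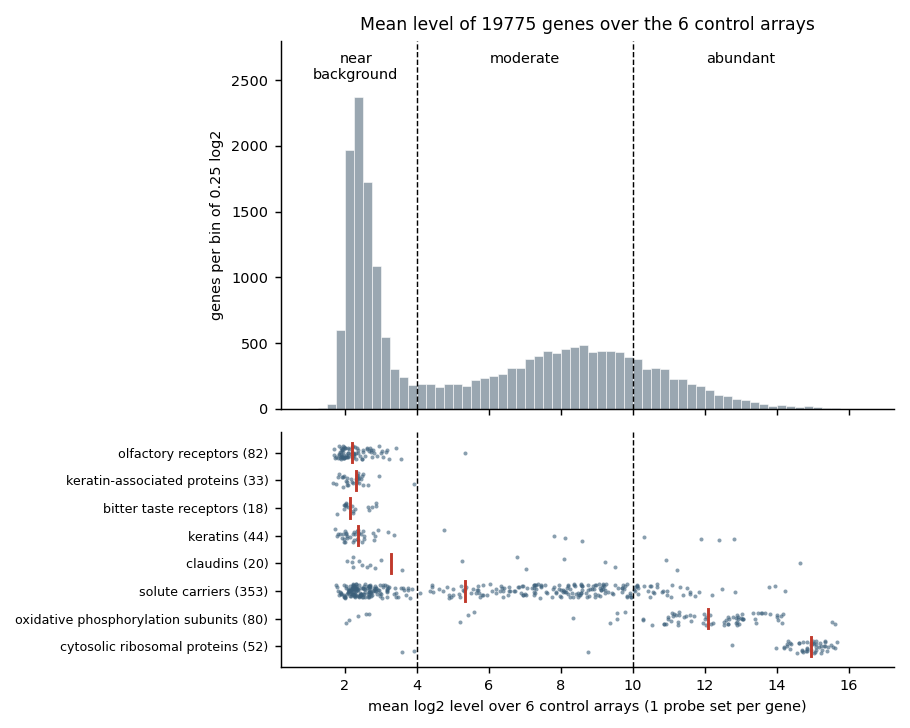
Upper panel: number of genes in bins of 0.25 on the log2 scale against the mean level over the 6 control arrays, with dashed lines at the class limits of log2 4 and 10; the 19775 genes form a narrow peak near log2 2.45 and a broad hump that spans the moderate class. Lower panel: each point is 1 gene of the named family (number of genes in brackets), with a red bar at the family's median; the olfactory, keratin-associated and taste receptor families lie in the narrow peak, and the ribosomal protein genes around 14.96.

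The classes were stable from array to array. In all 6 arrays 8823 genes were under log2 4 and 10464 were above it, leaving 488 that crossed the limit on some arrays. The 10 genes just under the limit began at 3.98 and the 10 just above it ended at 4.02, and around log2 10 these bounds were 9.99 and 10.01. The SD over the 6 arrays had a median of 0.016 in near-background genes, 0.22 in moderate and 0.16 in abundant genes. The limit of log2 4 does not part a floor from signal cleanly: 88.7% of genes under log2 3 had an SD under 0.05, as did 33.4% of those from log2 3 to 4 and 11.1% of those from 4 to 5. Of the genes on the lists used below, the neutral amino acid exchanger SLC7A8 (4.07 ± 0.01), the vitamin D hydroxylase CYP24A1 (4.30 ± 0.04), FZD4 (4.13 ± 0.03), RARG (5.51 ± 0.03), KLF15 (6.20 ± 0.04) and CSF1 (7.26 ± 0.04) counted as moderate with such a small SD. Long noncoding RNA genes were near background in 2381 of 2657 cases (89.6%), against 6209 of 16520 protein-coding genes (37.6%). The class also moved with the number of probe sets from which the highest was taken: 63% of genes with 1 probe set and 17.6% of those with 5 or more were near background.

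Translation, actin, glycolysis and mitochondria filled the top of the ranking. The highest signal was that of TMSB4X, which encodes the actin-binding peptide thymosin beta-4 (16.09 ± 0.06), followed by the elongation factor EEF1A1 (15.94 ± 0.06). Of the 25 highest genes, 14 encoded ribosomal proteins, among them RPL41 (15.67 ± 0.04), RPL37A (15.62 ± 0.03) and RPS24 (15.58 ± 0.03). Another 5 were mRNAs of the mitochondrial genome: ATP6 (15.74 ± 0.06), COX2 (15.64 ± 0.05), ND4 (15.57 ± 0.07), COX1 (15.55 ± 0.27) and ND2 (15.44 ± 0.16), which encode subunits of ATP synthase, cytochrome oxidase and complex I. The remaining 4 were the glycolytic enzyme GAPDH (15.59 ± 0.03), actin ACTB, the second thymosin TMSB10 and the lactate dehydrogenase subunit LDHB (15.31 ± 0.14). By the array maker's suffixes, 24 of these 25 probe sets can match several transcripts, and 7 of them may also bind other genes.

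The label of the line as proximal tubule was met by few of its defining markers: of 14 measured, PAX8 (10.83 ± 0.19) and DPP4 (11.61 ± 0.31) were above log2 4 and the other 12 lay between 2.09 and 3.76. The apical carriers by which the proximal tubule takes up its filtrate were mostly near background. Of 31 measured apical transporter genes, 6 were at log2 4 or more (19.4%, against 54.2% of all genes) and 1 was abundant. The median level of the list was 2.66, against 5.12 for all genes. The phosphate cotransporters SLC34A1 (2.66 ± 0.01) and SLC34A3 (2.12 ± 0.01), the glucose cotransporters SLC5A2 (2.27 ± 0.04) and SLC5A1 (2.82 ± 0.01), the sodium-proton exchanger SLC9A3 (2.10 ± 0.01), the urate exchanger SLC22A12 (2.24 ± 0.01) and the cystine carrier subunit SLC7A9 (1.78) all lay at levels seen for olfactory receptors. The amino acid transporter SLC6A19 ran from 3.75 to 3.77 over the 6 arrays with a median of 3.76. On the 6 arrays these genes differed by hundredths of a log2 unit, which is the spread of the background.

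The apical genes that did give signal were efflux pumps and a few carriers. The cyclic nucleotide and drug exporter ABCC4 ranged from 10.57 to 11.20, with a median of 10.86. The multidrug pump ABCB1 ranged from 9.10 to 10.15, with a median of 9.77. SLC3A1, the heavy subunit that partners SLC7A9 in cystine uptake, ranged from 7.98 to 9.85, with a median of 8.90, while the level of SLC7A9 itself was 1.78. The organic anion and urate transporter SLC17A3 (8.35 ± 0.23), its relative SLC17A1 (6.40 ± 0.45) and the imino acid transporter SLC6A20 (7.28 ± 0.33) were moderate. The efflux carriers ABCC2 (2.48 ± 0.01), ABCG2 (2.19 ± 0.01), SLC47A1 (2.10 ± 0.01) and SLC47A2 (2.04 ± 0.01), which secrete drugs and organic cations into urine, were near background.

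Basolateral genes fell into a high and a low group. Of 19 measured, 9 were at log2 4 or more (47.4%) and 6 were abundant (31.6%, against 14.3% of all genes). The 6 were the sodium pump subunit ATP1B1 (14.35 to 15.05, median 14.75), the pump regulator FXYD2 (12.36 to 14.15, median 13.17), the potassium channels KCNJ15 (12.50 to 13.27, median 12.92) and KCNJ16 (11.90 to 12.93, median 12.51), the sodium bicarbonate cotransporter SLC4A4 (10.78 to 12.77, median 11.84) and the organic anion transporter SLCO4C1 (10.41 to 11.13, median 10.82). Apart from SLCO4C1, these genes encode parts of the pump, potassium recycling and bicarbonate exit of the basolateral membrane. The organic anion transporters SLC22A6 (2.27 ± 0.01) and SLC22A8 (2.32 ± 0.01), the organic cation transporter SLC22A2 (2.20 ± 0.18) and the glucose exit carrier SLC2A2 (2.96 ± 0.42), which load drugs and release sugar at the same membrane, were near background.

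The brush border and endocytosis list was also split, with 9 of 24 measured genes at log2 4 or more (37.5%, against 54.2% of all genes). Near background were both endocytic receptors, megalin LRP2 (2.56 ± 0.03) and cubilin CUBN (2.09 ± 0.01), the peptidases ANPEP (2.95 ± 0.03), MME (2.42) and MEP1A (2.01 ± 0.01), the gamma-glutamyl transferase GGT1 (3.14 ± 0.01), the water channel AQP1 (2.42 ± 0.01) and the microvillus protein VIL1 (2.70 ± 0.01). The dipeptidyl peptidase DPP4 ranged from 11.20 to 12.06 with a median of 11.68, and the aminopeptidase ENPEP from 8.56 to 10.16 with a median of 9.61. Genes for the scaffold beneath the membrane were high: the actin linker EZR (11.39 ± 0.15) and the PDZ proteins PDZK1 (10.82 ± 0.50) and NHERF1 (8.98 ± 0.20). DAB2, the adaptor of megalin, was moderate (7.06 ± 0.28) in cells whose highest megalin probe set averaged 2.56.

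**Figure D2:**
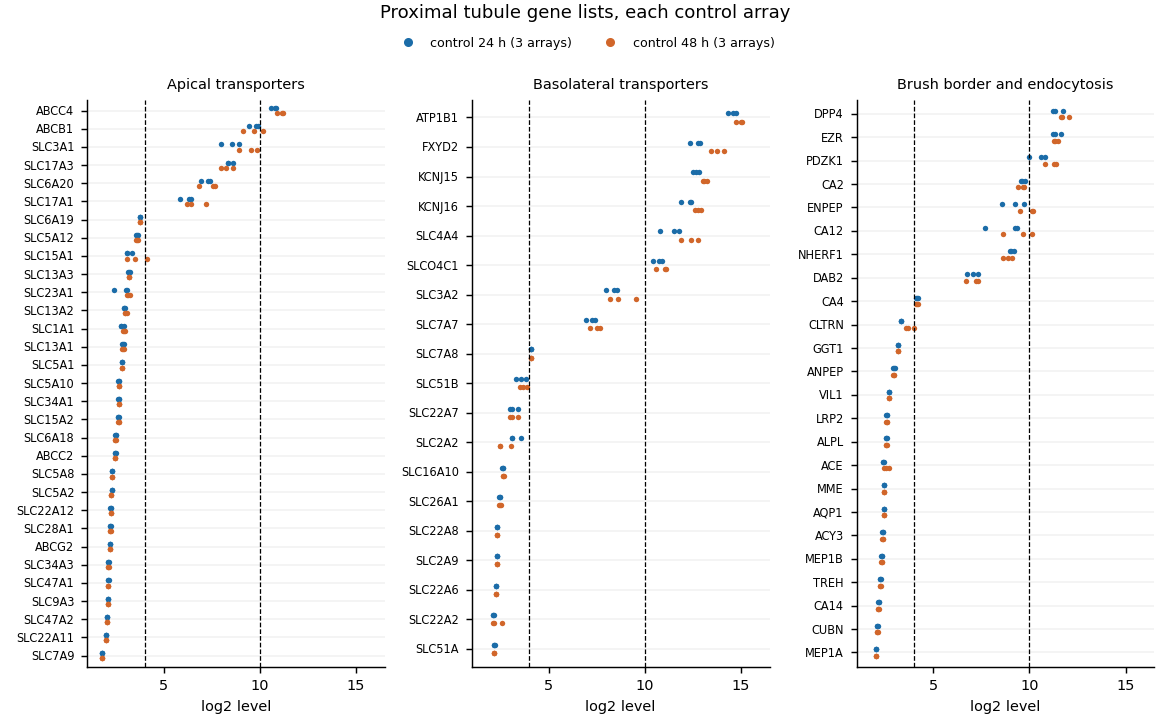
Log2 level of every measured gene of the apical, basolateral and brush border lists on each of the 6 control arrays (blue: 24 h, orange: 48 h, 3 arrays each), ordered by mean level, with dashed lines at log2 4 and 10. Most apical genes sit below log2 4 with hardly any spread, whereas ATP1B1, FXYD2, KCNJ15, KCNJ16, SLC4A4 and SLCO4C1 lead the basolateral genes at log2 10 or more.

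Among nephron transcription factors, 14 of 30 measured were at log2 4 or more (46.7%, against 54.2% of all genes). The highest were SOX4 (11.77 ± 0.10), a factor of progenitors and many epithelia, PAX8 (10.83 ± 0.19), the paired-box factor of kidney epithelium, and IRX3 (10.77 ± 0.44), a homeobox factor of nephron patterning. HOXB7 (9.79 ± 0.10), SIM1 (9.54 ± 0.36) and SALL1 (9.00 ± 0.22), all of the developing kidney, and the epithelial factor ELF3 (8.84 ± 0.14) followed. SOX9, which marks regenerating tubule cells, ranged from 6.42 to 8.34, with a median of 7.61. The hepatocyte nuclear factor relative HNF4G was low but above the limit (5.31 ± 0.29). Near background lay PAX2 (2.61 ± 0.02), the partner of PAX8 in development, the progenitor factors SIX2 (2.54 ± 0.01), WT1 (2.83 ± 0.03), OSR1 (2.41 ± 0.01) and EYA1 (2.21 ± 0.01), and the collecting duct factors GATA3 (2.50 ± 0.02), TFAP2B (2.83 ± 0.01) and FOXI1 (2.17 ± 0.01). The defining proximal factors of the list that were not measured are not analysed here.

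Markers of leukocytes, endothelium, collecting duct, loop of Henle and distal tubule were mostly near background. The share of podocyte markers at log2 4 or more was close to that of all genes. No leukocyte marker of 8 was at log2 4 or more, and their levels ran up to 2.96 for LYZ. Of 9 endothelial markers only PECAM1 (4.14 ± 0.24) was, with CDH5 at 2.40, VWF at 2.34 and KDR at 2.69. Of 14 collecting duct markers, the sodium channel subunit SCNN1A (9.13 ± 0.26) and the water channel AQP3 (7.07 ± 0.68) were, with AQP2 at 2.83 and the partner subunits SCNN1B and SCNN1G at 2.02 and 2.73. Of 10 markers of the loop of Henle and distal tubule, the claudins CLDN16 (9.24 ± 0.65) and CLDN19 (6.78 ± 0.09), which form a paracellular pore for divalent cations, and EGF (4.24 ± 0.19) were, with SLC12A1 at 3.88 and SLC12A3 at 2.18. Of 7 podocyte markers, 4 were at log2 4 or more (57.1%, against 54.2% of all genes), 1 of them abundant and 3 moderate. The receptor phosphatase PTPRO was abundant (12.83 to 13.36, median 13.22), while NPHS1, the nephrin of the filtration slit, was at 2.72.

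Fibroblast and pericyte markers were split. RGS5, a regulator of G protein signalling known from pericytes, ranged from 11.20 to 12.99 with a median of 12.37. The matrix proteoglycans DCN (12.04 ± 0.24) and LUM (10.15 ± 0.28) were also abundant, and the collagen COL1A1 (8.51 ± 0.36) and smooth muscle actin ACTA2 (6.51 ± 0.20) moderate. The other 5 of these 10 markers, the receptors PDGFRA (2.68 ± 0.03) and PDGFRB (2.75 ± 0.17), the collagens COL1A2 (2.96 ± 0.09) and COL3A1 (2.83 ± 0.02), and THY1 (3.11 ± 0.01), were near background. The abundant proteoglycans therefore stood beside near-background signal of the defining fibroblast receptors on all 6 arrays.

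**Figure D3:**
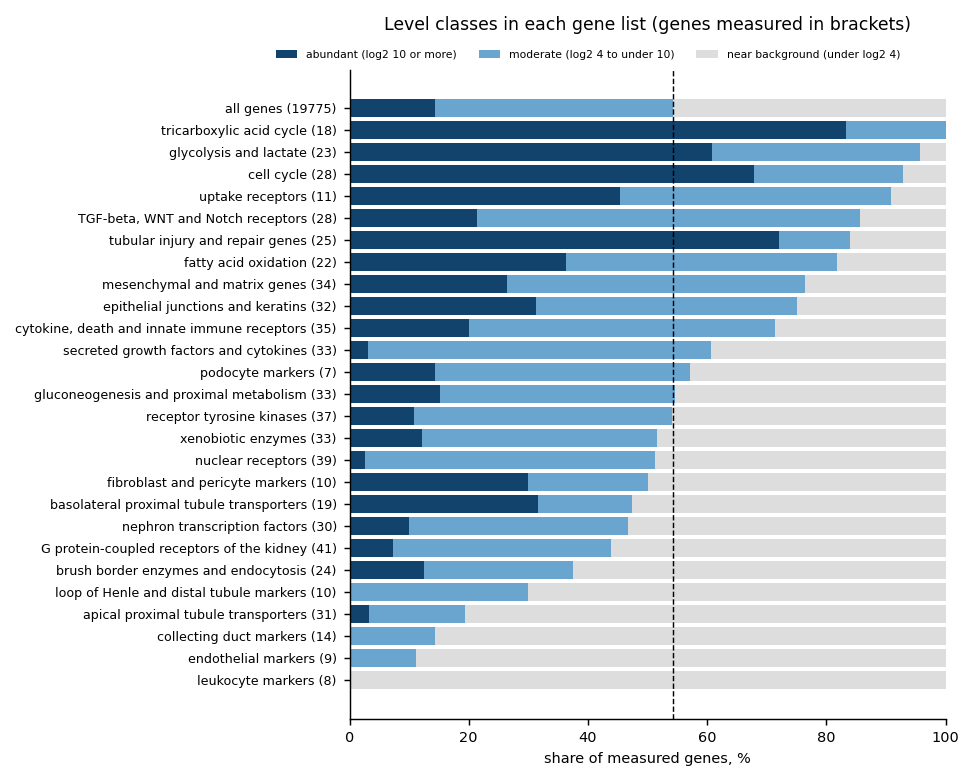
Share of the measured genes of each list that were abundant, moderate or near background (number of measured genes in brackets), with all genes in the first bar and a dashed line at their 54.2% at log2 4 or more. The tricarboxylic acid cycle (100%), glycolysis (95.7%) and cell cycle (92.9%) lists lie at the top, and the apical transporter (19.4%), collecting duct (14.3%), endothelial (11.1%) and leukocyte (0%) lists at the bottom.

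Epithelial structure was well represented. Of 32 measured junction and keratin genes, 24 were at log2 4 or more (75%) and 10 were abundant. CLDN1, the tight junction claudin whose promoter is given above, ranged from 14.52 to 14.78. The adhesion molecule EPCAM (13.15 ± 0.17), the keratins KRT18 (12.82 ± 0.36), KRT19 (12.39 ± 0.25) and KRT8 (11.90 ± 0.47), and the junction scaffold TJP1 (11.21 ± 0.19) were abundant. The cadherins separated: CDH6, the cadherin of the embryonic proximal tubule, was at 12.59 ± 0.25, the kidney-specific CDH16 at 9.02 ± 0.66, and E-cadherin CDH1 ranged from 6.88 to 7.62. CLDN2, the cation pore of the proximal tubule, was abundant (10.91 ± 0.30), whereas CLDN10 (2.23 ± 0.03), its anion-selective relative, was near background. Keratins of stratified epithelium, KRT5 (1.93 ± 0.01) and KRT14 (2.50 ± 0.02), were near background, as were 36 of all 44 keratin genes measured. KRT7 (7.81 ± 0.55), KRT80 (8.59 ± 0.39) and KRT20 (8.11 ± 1.10) were moderate.

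Genes of the mesenchymal and matrix list were present on the same arrays to a like extent, with 26 of 34 at log2 4 or more (76.5%) and 9 abundant. Fibronectin FN1 ranged from 14.91 to 15.00 and vimentin VIM, the intermediate filament that proximal tubule cells gain after injury, from 13.83 to 14.45. The integrin subunits ITGAV (14.03 ± 0.06) and ITGB1 (13.61 ± 0.09), the matrix protein SPARC (13.06 ± 0.12) and the basement membrane collagens COL4A2 (12.62 ± 0.28) and COL4A1 (12.37 ± 0.20) followed. N-cadherin CDH2, which the adult human proximal tubule also expresses, was at 9.60 ± 0.23. The transcription factors of epithelial-to-mesenchymal transition were divided: TWIST1 (7.91 ± 0.30) and ZEB1 (7.56 ± 0.09) were moderate, and SNAI1 (3.63 ± 0.01), SNAI2 (2.44 ± 0.03), ZEB2 (2.92 ± 0.11) and TWIST2 (2.38 ± 0.01) near background. ESRP1, the epithelial splicing factor that ZEB1 represses, was at 5.85 ± 0.22. TAGLN, an actin-binding protein of contractile cells, varied most in this list, from 3.62 to 7.18 with a median of 4.61. Its 3 highest values were those of the 24 h arrays, but TAGLN was picked here for its spread.

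Tubular injury and repair genes had a larger abundant share than any list but the tricarboxylic acid cycle: 18 of 25 were abundant (72%) and 21 at log2 4 or more (84%). Osteopontin SPP1, secreted by injured tubules, ranged from 14.86 to 15.16, and HAVCR1, the injury molecule of the proximal tubule, from 11.36 to 11.66. S100A6 (14.73 ± 0.08), CD24 (14.49 ± 0.14), a marker of scattered tubule cells, ANXA2 (14.15 ± 0.26), VCAN (13.70 ± 0.20) and the protease inhibitors TIMP1 (12.94 ± 0.07) and TIMP2 (12.05 ± 0.22) were abundant. So were the cell cycle arrest marker IGFBP7 (13.89 ± 0.22), the neutrophil chemokine CXCL8 (12.56 ± 0.20), IL18 (11.07 ± 0.16), GDF15 (10.86 ± 0.50) and CD44 (10.31 ± 0.47). VCAM1 (7.44 ± 0.23), PROM1 (4.70 ± 0.80) and CCL2 (5.54 to 8.37, median 6.82) were moderate. Other markers of the same list were near background: LCN2 (2.84 ± 0.11), known as neutrophil gelatinase-associated lipocalin, FABP1 (2.53 ± 0.01), TFF3 (2.45) and, on most arrays, IL6 (2.31 to 5.35, median 3.37).

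**Figure D4:**
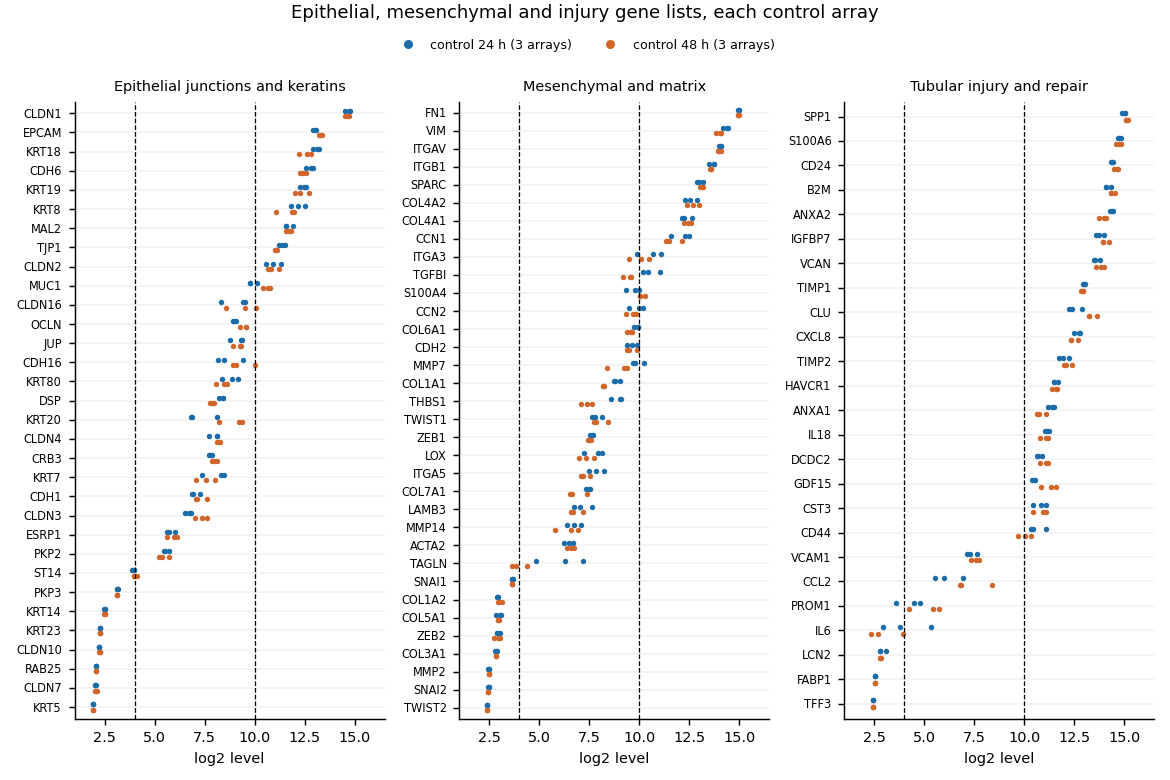
Log2 level of every measured gene of the epithelial, mesenchymal and injury lists on each control array (blue: 24 h, orange: 48 h, 3 arrays each), with dashed lines at log2 4 and 10. Each panel holds genes above log2 14 (CLDN1, FN1 and SPP1 lead) and a tail below log2 4; TAGLN, KRT20, CCL2 and IL6 show the widest spread.

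Across whole transporter families, 195 of 353 solute carriers (55.2%) were at log2 4 or more and 36 were abundant (10.2%), near the shares of all genes. The members named in this paragraph were picked after their levels were seen. Among the highest solute carriers were the mitochondrial ADP/ATP carrier SLC25A5 (14.24 ± 0.04) and phosphate carrier SLC25A3 (13.96 ± 0.04), the glutamine transporters SLC38A2 (13.80 ± 0.26) and SLC38A1 (12.47 ± 0.12), and the zinc carriers SLC30A1 (12.19 ± 0.19), SLC39A6 (11.74 ± 0.11) and SLC39A10 (11.41 ± 0.30). The solute carrier SLC35F5 (12.85 ± 0.37), the sodium bicarbonate cotransporter SLC4A4 (11.86 ± 0.69) and the organic anion transporter SLCO4A1 (11.60 ± 0.23) lay among them. Carriers of osmolytes, the inositol transporter SLC5A3 (11.32 ± 0.70) and the taurine transporter SLC6A6 (10.85 ± 0.41), and the creatine transporter SLC6A8 (10.57 ± 0.27) were also abundant. Of the sodium-phosphate cotransporters, the ubiquitous SLC20A1 was abundant (11.58 ± 0.23), SLC34A2 (7.46 ± 0.87) and SLC20A2 (4.72 ± 0.07) were moderate, and the tubular SLC34A1 and SLC34A3 near background. Of 11 aquaporins, AQP3 alone was at log2 4 or more. Of 42 ABC transporters, 20 were at log2 4 or more and 3 abundant: ABCE1 (11.63 ± 0.25), a ribosome recycling factor, the peroxisomal ABCD3 (11.40 ± 0.12) and ABCC4.

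Genes of central energy metabolism gave high signal. All 18 measured genes of the tricarboxylic acid cycle and pyruvate dehydrogenase were at log2 4 or more and 15 were abundant (83.3%), from MDH2 (12.81 ± 0.11) down to OGDH (8.78 ± 0.33). Of 23 glycolysis and lactate genes, 22 were at log2 4 or more and 14 abundant (60.9%). The lactate dehydrogenase subunits LDHB (15.07 to 15.44) and LDHA (14.82 to 14.94), ENO1 (14.70 ± 0.11), PGK1 (14.01 ± 0.12) and PKM (13.47 ± 0.24) followed GAPDH. ALDOC (2.01 ± 0.06), the brain aldolase, was the exception. Both hexokinases HK1 (10.90 ± 0.21) and HK2 (8.59 ± 0.33) gave signal, as did the glucose carriers SLC2A3 (9.18 ± 0.34) and SLC2A1 (6.92 ± 0.35). Of the kinases that switch off pyruvate dehydrogenase, PDK4 was abundant (12.15 ± 0.40), and PDK3 (9.01 ± 0.33), PDK1 (8.93 ± 0.15) and PDK2 (7.74 ± 0.51) were moderate. Fatty acid oxidation was also represented, with 18 of 22 genes at log2 4 or more (81.8%) and 8 abundant. The mitochondrial enzymes ECHS1 (12.45 ± 0.13), HADHB (11.60 ± 0.22), HADHA (11.56 ± 0.10) and ACADM (10.84 ± 0.14) led, the gatekeeper CPT1A was at 7.70 ± 0.23 and the carnitine transporter SLC22A5 at 5.65 ± 0.27.

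The enzymes particular to proximal tubule metabolism were divided by pathway. Of 33 measured, 18 were at log2 4 or more (54.5%) and 5 abundant (15.2%), close to the 54.2% and 14.3% of all genes. The 3 cytosolic and endoplasmic enzymes of glucose production, PCK1 (3.11 ± 0.09), FBP1 (2.19 ± 0.29) and G6PC1 (2.62 ± 0.01), were near background, while the mitochondrial PCK2 was moderate (8.01 ± 0.26) and pyruvate carboxylase PC low (4.59 ± 0.43). Enzymes of arginine and glutamine metabolism were abundant: ASS1 (11.24 to 12.25, median 11.82) and ASL (10.04 ± 0.14), which make arginine from citrulline, ARG2 (10.21 ± 0.49), GLUL (11.11 ± 0.14) and GLUD1 (10.91 ± 0.21). Creatine synthesis was covered by GATM (8.27 ± 0.28) and GAMT (8.95 ± 0.47). MIOX, the kidney enzyme that oxidises inositol, ranged from 8.71 to 9.97 with a median of 9.26. KHK, the fructose kinase, was at 6.69 ± 0.32 and DDC, which makes dopamine in the tubule, at 6.41 ± 0.65. Glycine conjugation genes GLYAT (2.23 ± 0.01), ACSM2A (2.89 ± 0.04) and ACSM2B (2.18 ± 0.01), the amino acid oxidase DAO (2.11 ± 0.01), BHMT (1.95 ± 0.01) and the vitamin D enzyme CYP27B1 (2.15 ± 0.01) were near background.

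Of 33 measured xenobiotic metabolism genes 17 were at log2 4 or more (51.5%, against 54.2% of all genes). The 4 abundant ones were the glutathione transferases GSTP1 (11.92 ± 0.43) and GSTM3 (10.57 ± 0.17), the epoxide hydrolase EPHX1 (11.54 ± 0.29) and the quinone reductase NQO1 (10.96 ± 0.32). Sulfotransferases SULT1A1 (9.99 ± 0.13) and SULT1C2 (9.83 ± 0.52) and the aldo-keto reductase AKR1C3 (9.73 ± 0.42) were close to that limit. Of all 47 cytochrome P450 genes, 8 were at log2 4 or more (17%) and none was abundant; CYP1B1 led (8.41 to 9.62, median 9.17). CYP1A1 (2.10 ± 0.01), the classic target of the aryl hydrocarbon receptor, was near background although the receptor AHR (8.76 ± 0.11) and its partner ARNT (7.08 ± 0.18) were not. The drug-oxidising CYP3A4 (2.60 ± 0.01), CYP2E1 (2.69 ± 0.03), CYP2B6 (2.50 ± 0.01), CYP2C8 (2.80 ± 0.02) and CYP4A11 (2.32 ± 0.02) lay at the level of the olfactory receptors. So did the glutathione transferase GSTM1 (2.48 ± 0.13) and the glucuronosyltransferase UGT1A6 (1.99 ± 0.01).

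Receptors and ligands of the epidermal growth factor family both gave signal. Of 37 measured receptor tyrosine kinases, 20 were at log2 4 or more (54.1%, against 54.2% of all genes). Abundant were 4 (10.8%, against 14.3% of all genes). These 4 were the hepatocyte growth factor receptor MET (11.98 to 12.25, median 12.13), EGFR (11.65 to 11.92, median 11.72), whose ligand is in the medium, AXL (10.80 ± 0.23) and the WNT co-receptor RYK (10.38 ± 0.06). ERBB2 (8.47 ± 0.28), IGF1R (8.37 ± 0.47), INSR (6.36 ± 0.13) and ERBB3 (4.74 ± 0.08) were moderate, and ERBB4 (2.47 ± 0.01), RET (2.61 ± 0.02) and KIT (2.17 ± 0.01) near background. Of the ligands, TGFA (9.76 ± 0.13), EREG (8.95 ± 0.70) and HBEGF (6.70 ± 0.73) were moderate. In the whole list of secreted factors 20 of 33 were at log2 4 or more (60.6%, against 54.2% of all genes). Only TGFB1 (10.10 ± 0.54) was abundant. VEGFA (9.88 ± 0.34), the angiogenic factor, and the chemokines CXCL2 (9.53 ± 0.32) and CXCL5 (7.78 ± 0.96) came next, whereas CXCL1 (2.49 ± 0.02), IL1A (2.62 ± 0.07), EDN1 (2.81 ± 0.30) and CSF3 (2.33 ± 0.02) were near background. The TGF-beta receptors TGFBR2 (10.88 ± 0.17) and TGFBR1 (9.27 ± 0.19) stood beside their ligand.

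Receptors of the TGF-beta, WNT and Notch pathways were at log2 4 or more in 24 of 28 cases (85.7%), led by NOTCH2 (11.74 ± 0.10), FZD6 (11.38 ± 0.10) and the Notch ligand JAG1 (10.96 ± 0.61). Of 35 cytokine, death and innate immune receptors, 25 were at log2 4 or more (71.4%). The shared signal chain IL6ST (12.18 ± 0.09) and OSMR (11.78 ± 0.16), which together form the oncostatin M receptor, TNFRSF1A (10.81 ± 0.29) and FAS (10.71 ± 0.14) were abundant. Of the Toll-like receptors, TLR2 (6.46 ± 0.18) and TLR3 (4.86 ± 0.46) were above the limit and TLR4 (2.90 ± 0.08) and TLR5 (2.10 ± 0.02) below it. Growth hormone receptor GHR (2.50 ± 0.01), prolactin receptor PRLR (2.83 ± 0.05) and leptin receptor LEPR (2.06 ± 0.01) were near background.

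Of 41 measured G protein-coupled receptors 18 were at log2 4 or more (43.9%, against 54.2% of all genes). The 3 abundant ones were the adhesion receptor ADGRG1 (11.55 ± 0.34), the thrombin receptor F2R (10.61 ± 0.28) and the prostaglandin receptor PTGER2 (9.67 to 11.18, median 10.56). The parathyroid hormone receptor PTH1R (2.45 ± 0.09), the angiotensin receptors AGTR1 (2.71 ± 0.02) and AGTR2 (2.78 ± 0.02), the dopamine receptors DRD1 (2.41 ± 0.02) and DRD5 (2.02 ± 0.06) and the adrenergic ADRA1B (1.94 ± 0.01) were near background. Of 39 nuclear receptors, 20 were at log2 4 or more (51.3%, against 54.2% of all genes). NR2F6 alone was abundant (10.46 ± 0.28). The glucocorticoid receptor NR3C1, whose ligand hydrocortisone is in the medium, ranged from 9.37 to 9.99, and the mineralocorticoid receptor NR3C2 from 7.44 to 8.57. PPARA, the fatty acid sensor of the tubule, was at 7.93 ± 0.45, and the vitamin D receptor VDR lay on the limit (3.45 to 4.96, median 4.01). Of 11 uptake receptors other than megalin and cubilin, 10 were at log2 4 or more (90.9%) and 5 abundant, including the transferrin receptor TFRC (12.64 ± 0.49), the folate receptor FOLR1 (11.83 ± 0.22) and the lysosomal SCARB2 (11.63 ± 0.27).

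Genes of the cell cycle were nearly all above the limit, with 26 of 28 cell cycle genes at log2 4 or more (92.9%) and 19 abundant (67.9%). The replication clamp PCNA (13.65 ± 0.20), the mitotic kinase CDK1 (12.18 ± 0.21), its cyclin CCNB1 (12.10 ± 0.47), the topoisomerase TOP2A (12.02 ± 0.23), the licensing factor MCM2 (12.14 ± 0.13) and the proliferation marker MKI67 (10.85 to 11.85, median 11.25) were abundant. The inhibitor gene CDKN2A was abundant on the same arrays (11.93 to 12.40, median 12.28) and CDKN1A, the p53 target, moderate (9.48 ± 0.30). CDKN2B (3.23 ± 0.37) and the telomerase gene TERT (2.78 ± 0.02) were near background.

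The 6 arrays correlated with each other at 0.991 to 0.997 over 54613 probe sets, and array medians lay between 2.91 and 2.96. Time after vehicle was compared over the 22141 probe sets above log2 4 on at least 3 control arrays. In limma without a replicate term, 1 probe set (0.00452%) passed an adjusted p of 0.05, and 3759 had an unadjusted p under 0.05. It belonged to INHBA, the activin A subunit: 6.39, 6.09 and 6.00 on the 24 h arrays and 4.12, 4.15 and 4.17 on the 48 h arrays, a fall of 2.01 ± 0.12 (SE) on the log2 scale (limma adjusted p = 0.0391). The probe set that represents INHBA here read 6.79, 7.47 and 7.58 at 24 h and 5.27, 4.81 and 5.23 at 48 h (limma adjusted p = 0.117). On both, all 24 h values lay above all 48 h values, but INHBA was picked by its p for time on these arrays.

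Deviations from the group means were shared between 24 h and 48 h arrays that carry the same number in the labels, and with that number as a block 2282 probe sets passed (10.3%), 1043 higher at 48 h (4.71%) and 1239 lower (5.6%). This count was 0 when any 1 of the 6 control arrays was left out, which leaves only 2 complete pairs, while 5078 to 5619 probe sets kept an unadjusted p under 0.05. All of the following time differences therefore rest on the full set of 3 pairs, and apart from the INHBA probe set given first none passed without the block.

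Several of the basolateral and brush border genes that lead their lists were higher at 48 h with the block. FXYD2, the sodium pump regulator, read 12.90, 12.78 and 12.36 at 24 h and 14.15, 13.77 and 13.44 at 48 h, a rise of 1.10 ± 0.09 (limma with block, adjusted p = 0.025; 0.169 without). The bicarbonate cotransporter SLC4A4 read 11.50, 11.80 and 10.78 at 24 h and 12.40, 12.77 and 11.89 at 48 h (adjusted p = 0.025 with block in limma; 0.224 without). Both FXYD2 and SLC4A4 were higher at 48 h in each of the 3 pairs by similar amounts. In all, 4 of 9 tested basolateral genes, 4 of 9 tested brush border genes and 1 of 6 tested apical genes (SLC3A1, higher by 0.95) were higher, and none of these lists held a gene that was lower. The others were KCNJ15 (0.48 higher), KCNJ16 (0.54), ENPEP (0.78), CA12 (0.71), PDZK1 (0.68) and DPP4 (0.38). TFCP2L1, a factor of distal tubule and collecting duct epithelium, was 1.65 higher, and of 18 tested proximal metabolism genes 4 were higher, DDC (1.05), MIOX (0.66), ARG2 (0.65) and PC (0.59), and 1 lower, CYP2J2 (-1.30). Of 10723 genes tested, 543 were higher and 661 lower with the block.

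Genes that were lower at 48 h with the block included 5 of 26 tested mesenchymal and matrix genes (THBS1, TGFBI, COL1A1, ITGA5 and ITGA3). None of that list was higher. Over all 22141 probe sets 4.71% were higher and 5.6% lower with the block. Whether any list differs from these shares was not tested, and the lists of this paragraph held only 14 to 50 tested genes each. THBS1, thrombospondin, read 9.09, 8.60 and 9.03 at 24 h and 7.37, 7.61 and 7.09 at 48 h. Of 26 tested cell cycle genes 5 were lower and 1 was higher. Among the lower were CCNA2 (lower by 0.90 on the log2 scale, given as -0.90 for 48 h minus 24 h), CCNB1 (-0.75) and MKI67 (-0.63). Of 14 tested nephron transcription factors 2 were higher, TFCP2L1 and SIM1 (0.58), and 1 lower, SOX9 (-1.29). Of 20 tested nuclear receptors 3 were higher, NR2F1 (0.73), PPARA (0.69) and NR1D2 (0.49), and 1 lower, VDR (-0.97). Of 24 tested epithelial genes 4 were higher, among them KRT20 and CDH16, and 3 lower, among them KRT18 and DSP. Of 21 tested injury genes 3 were higher and 2 lower, while 4 of 20 tested secreted factors were lower and none higher. None of the 18 tested genes of the tricarboxylic acid cycle list and none of the 50 ribosomal protein genes tested was called.

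The 10 genes with the largest SD among those with a mean of at least log2 6 were led by TXNIP, MMP1 and SLN. TXNIP, a glucose-responsive inhibitor of thioredoxin, read 9.46, 9.96 and 9.23 at 24 h and 4.22, 6.80 and 7.24 at 48 h, so that 1 array at 48 h was well below the other 2. The collagenase MMP1 showed the same arrangement, at 7.68, 7.63 and 7.63 and then 3.01, 5.43 and 5.43. Sarcolipin SLN read 8.39, 7.82 and 9.14 and then 5.40, 4.17 and 6.93. The neuropeptide GAL, the noncoding LINC00973 and INHBA were also lower at 48 h with the block, and INHBE, another activin subunit gene, the GABA transporter gene SLC6A13 and the nucleotide pyrophosphatase gene ENPP3 had higher means. INHBE read 6.32, 6.96 and 6.01 at 24 h and 9.59, 8.36 and 7.93 at 48 h. SLC6A13 read 8.30, 8.85 and 7.58 and then 10.49, 10.58 and 9.67, and RAB17, a small GTPase of polarised epithelial cells, 7.18, 7.19 and 6.98 and then 9.08, 9.19 and 8.73. PLAT, also among the 10, read 7.08, 6.56 and 8.77 at 24 h and 4.99, 5.22 and 7.22 at 48 h. Its values at the 2 times overlapped, although it was lower with the block (limma with block, adjusted p = 0.0257; 0.329 without). The genes of this paragraph were picked for large SD or small p for time on the same arrays.

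Arrays also differed by replicate number. Over 10727 genes the median share of a gene's sum of squares over the 6 arrays was 45.3% for the number (2 degrees of freedom), 29.1% for time (1) and 12% for the remainder (2). The degrees of freedom differ, so the shares are not ranked. In limma, the F test of the number passed for 0 of 22141 probe sets (0%), with 6581 at an unadjusted p under 0.05. Among the probe sets that represent the 10727 genes, the lowest adjusted p of this F test was 0.0666. The genes of smallest p included FOSL1, an AP-1 factor gene, at 5.71, 4.38 and 6.71 for numbers 1, 2 and 3 at 24 h and 3.60, 2.20 and 5.08 at 48 h. The cytoskeletal linker PLEC read 8.06, 6.68 and 8.33 at 24 h and 7.67, 6.56 and 7.96 at 48 h, with number 2 lowest both times. The noncoding UCA1 read 6.45, 6.88 and 8.27 and then 6.50, 6.66 and 8.56, and the lipid phosphatase gene PLPP4 8.44, 8.03 and 7.02 and then 8.53, 7.91 and 6.87. Number 3 was highest for UCA1 and lowest for PLPP4. These genes were picked by that p on the same arrays, so an order kept at both times follows from the choice. The labels do not say what the number stands for.

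**Figure D5:**
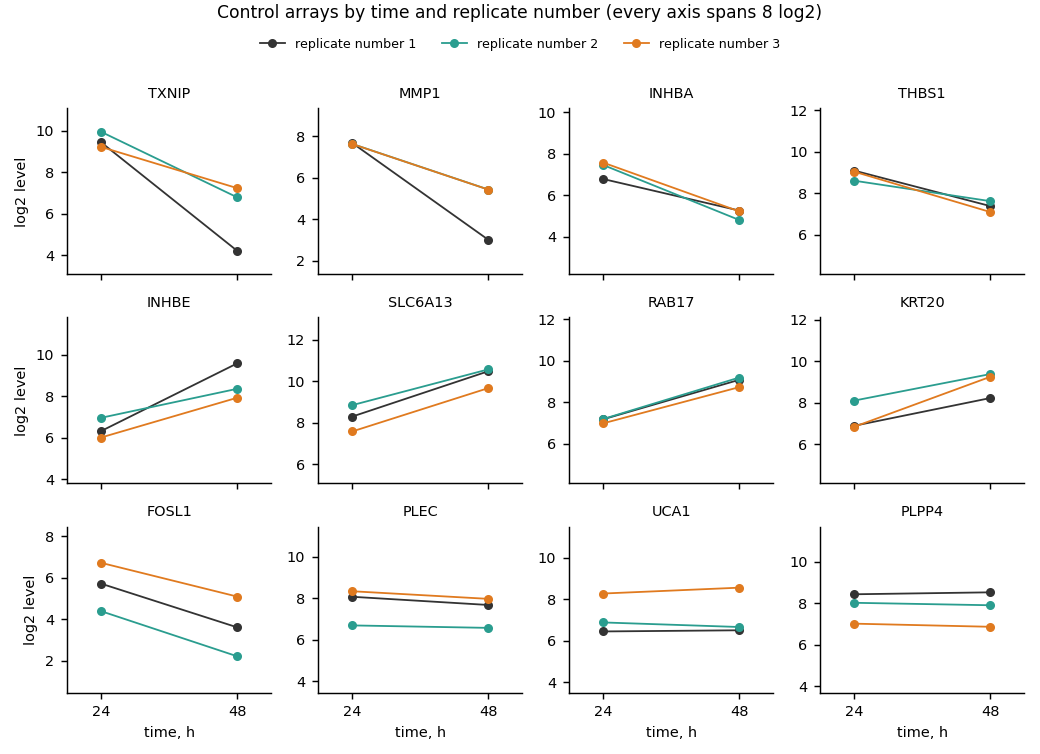
Log2 level against time for 12 genes on the 6 control arrays, with a line joining arrays of the same replicate number and an axis of equal length (8 log2) in every panel. TXNIP, MMP1, INHBA and THBS1 are lower and INHBE, SLC6A13, RAB17 and KRT20 higher at 48 h in all 3 pairs. FOSL1, PLEC, UCA1 and PLPP4, picked for a small p of replicate number, keep the order of the numbers at both times. All 12 genes were picked by their values on these same arrays, so the patterns shown follow from the choice.

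Level classes were also compared with those of the Nnm arrays, gene by gene. Of 9076 genes under log2 4 in 24 h controls, 83 (0.914%) were at log2 4 or more in 48 h controls, and 1 reached log2 6. In the Nnm arrays at 24 h, 185 of the same 9076 (2.04%) were at log2 4 or more and 15 reached log2 6. Of 9054 genes under log2 4 in 48 h controls, the Nnm arrays at 48 h had 220 (2.43%) at log2 4 or more and 21 at log2 6. Of 2865 genes abundant in 24 h controls, 206 (7.19%) averaged under log2 10 in 48 h controls and 357 (12.5%) in the Nnm arrays at 24 h; of 2803 abundant in 48 h controls, 298 (10.6%) did so in the Nnm arrays at 48 h. None of them was under log2 4 there. Among all genes on the lists, SLC51B, a basolateral organic solute transporter subunit, was near background in controls (3.61 ± 0.21) and averaged 5.68 ± 1.62 and 6.46 ± 1.71 in the Nnm arrays at 24 h and 48 h (SD, n = 3). SLC17A1 went from 6.40 ± 0.45 in controls to 3.91 ± 2.96 and 3.83 ± 3.13. For both genes the SD among the 3 Nnm arrays was several times that of the controls, and no test was made of these crossings.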

How the data were processed

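Total RNA of 12 HK-2 samples in 4 groups of 3 was hybridised to Affymetrix arrays, 1 per sample. The deposited values are log2 expression values per probe set made by the authors with GCRMA, per the submitters' processing notes; the version and the set of arrays normalised together are not given in the sources used here. GCRMA sets probes without specific signal to near-constant low values, so differences near background are compressed. Of 54675 probe sets, 62 manufacturer controls were left out, and 41091 named 1 gene in the platform annotation, 1801 several and 11721 none; gene IDs of all but 54 matched RefSeq. Time and replicate number were tested with limma 3.58.1 in R 4.3.3 (Benjamini-Hochberg) on probe sets above log2 4 on at least 3 of 6 control arrays; the code was tested on simulated data. The labels do not say that a replicate number marks a shared culture. Deviations of same-numbered arrays from their group means correlated at 0.488, 0.592 and 0.587, so the blocked fit is given beside the time result. Those of other pairs correlated at -0.413 to -0.143. Deviations cancel within each group of 3, so positive values for same-numbered pairs bring negative ones for the others, which are no separate evidence. Per the labels, the control arrays are 3 biological replicates at 24 h and 3 at 48 h. The SD over the 6 arrays therefore also holds any difference between the times, and is not that of 6 replicates of 1 condition. The number of arrays limits the precision. Genes named are the 25 of highest mean, the 10 of largest SD (mean at least log2 6), members of 26 lists, and those of smallest p for time and number. The members, the 26 lists and the rules were chosen with earlier results of these data known. Of 682 listed genes, 67 are not analysed here. Alternatives covered the class limits, the probe set rule, the filter, the variance prior, the arrays used and single arrays left out. Promoter sequences are RefSeq's.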

Additional observations from a re-analysis of the deposited data

How the results depend on the processing

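The number of near-background genes (7777 to 9896) and of moderate genes (6182 to 9184) stayed within 1.5 times the reported count under every alternative. The 2829 abundant genes became 4536 with a limit of log2 9, 1534 with 11, 1344 with the mean over a gene's probe sets in place of the highest, and 1571 when probe sets that can match several transcripts were left out (17098 genes remained). With the mean over probe sets 839 genes crossed log2 4, and 974 of those 17098 did, against 14 to 25 when 1 control array was left out. Of the 26 list counts at log2 4 or more, 10 moved by over 1.5 times without such probe sets (fewer genes are then measured), 4 with a limit of log2 3, 2 with the mean over probe sets, 1 with a limit of log2 5 and 0 when 1 array was left out. Of 664 gene levels, 413 moved by more than their SD with the mean over probe sets and 0 with the median over arrays. Probe sets of 1 gene often disagreed: of 2011 abundant genes with several, 964 (47.9%) had another under log2 4. The time comparison called 1 probe set as reported, 2282 with the replicate block, 5 without the filter, 12 above log2 6, 0 in a fit of all 12 arrays, and 0 to 1 when 1 array was left out; the blocked count, in an alternative added after the data were seen, was 0 in each such fit. The replicate number called 0 as reported, 2012 above log2 6, 2458 with limma-trend and 1271 over 12 arrays; the cause of these changes was not tested.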

Other observations

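Of 13522 probe sets that name no single gene, 2712 (20.1%) were at log2 4 or more and 558 (4.13%) abundant on the control arrays, so part of the expressed signal has no gene name here. Among long noncoding RNA genes, 11 of 2657 were abundant; MALAT1, named after its value was seen, was at 11.79 ± 0.47. Some genes were split between partners of 1 protein complex: the cystine carrier subunit SLC3A1 was at 8.95 ± 0.67 and SLC7A9 at 1.78, and the sodium channel subunit SCNN1A at 9.13 ± 0.26 with SCNN1B at 2.02 ± 0.01. COL1A1 was at 8.51 ± 0.36 and COL1A2, the other chain of type I collagen, at 2.96 ± 0.09.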
